A study of Mus musculus with 6 samples.

Results

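CD4 helper and regulatory T cell genes were examined in RNA-seq libraries. The study's methods describe these libraries as CD8T cells cocultured with macrophages that had or had not been treated with DB2313. The 7 genes are Cd4, Zbtb7b, Cd40lg, Foxp3, Il2ra, Ikzf2 and Ikzf4. They were chosen by gene symbol from the 54532 genes of the deposited count table, each symbol matched 1 row, and all 7 passed the filter on low counts. Per the study's methods, a kit was used to isolate CD8T cells from mouse spleen, beads carrying anti-CD3 and anti-CD28 activated them, and a 24 hr coculture followed with an equal number of thioglycolate-elicited peritoneal macrophages, themselves exposed for 12 hr to IFN-γ at 10 ng/mL. These steps were shared by both groups. In the control group (3 samples) the macrophages received no DB2313, and in the DB2313 group (3 samples) they received DB2313, which inhibits Spi1 (PU.1), a myeloid transcription factor. The methods give 14 nM. The labels name primary T cells and dendritic cells where the methods name CD8T cells and macrophages, and nothing says that the 3 samples of a group came from separate cultures or mice, so p-values measure the spread between these samples, which may be technical. Strain, age and sex are not given in the sources used here.

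T cells divide into 2 main lineages by their coreceptor. Cd4 encodes the coreceptor that binds MHC class II, and Zbtb7b (ThPOK) is the zinc finger factor that directs thymocytes to the CD4 lineage, opposite Runx3, which directs them to the CD8 lineage and silences Cd4. Cd40lg encodes CD40 ligand, which activated helper T cells show to B cells and antigen-presenting cells. Foxp3 is the lineage factor of regulatory T cells, Il2ra encodes the alpha chain (CD25) of the high-affinity IL-2 receptor, and Ikzf2 (Helios) and Ikzf4 (Eos) are Ikaros family factors found in regulatory T cells. Il2ra is also induced on activated CD8T cells and is found on mature dendritic cells, so the group is not confined to CD4 T cells.

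Per the deposited table, Cd4 (ENSMUSG00000023274) lies on the minus strand of chromosome 6 from 124864692 to 124888221, Zbtb7b (ENSMUSG00000028042) on the minus strand of chromosome 3 from 89377644 to 89394776, and Cd40lg (ENSMUSG00000031132) on the plus strand of chromosome X from 57212143 to 57224042. Foxp3 (ENSMUSG00000039521) lies on the plus strand of chromosome X from 7579676 to 7595243, Il2ra (ENSMUSG00000026770) on the plus strand of chromosome 2 from 11642807 to 11693193, Ikzf2 (ENSMUSG00000025997) on the minus strand of chromosome 1 from 69531214 to 69687245, and Ikzf4 (ENSMUSG00000002578) on the minus strand of chromosome 10 from 128630843 to 128645991. All are annotated as protein-coding. For 98.3% of the genes also found in GENCODE mouse release 21 the table's coordinates equal those of that GRCm38 annotation, and this holds for 6 of the 7 genes. Foxp3 is the exception, as its gene model in release 21 starts at 7573644 and ends at 7595245. In that release Foxp3 shares exon bases with 4 other genes. These include Flicr on the same strand, counted 38 to 61 times in a library, and Ccdc22 on the opposite strand, which shares 590 bases with Foxp3 and was listed at 0 in all 6 libraries. Of the exon bases of Ccdc22, 86.3% also belong to Gm36995. How reads in shared bases were counted is not stated, so the Foxp3 counts are uncertain to that extent, and the part of the overlaps in the Foxp3 result was not tested. Cd4 and Cd40lg overlap no other gene, and the exons of Zbtb7b, Ikzf2 and Ikzf4 share at most 2.07% of their bases with other genes.

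RefSeq promoter sequences of GRCm38.p6 were found for 3 of the 7 genes, with 2 start sites each for Zbtb7b and Foxp3. These 3 are shown because the other 4 had no entry among the promoters used. On the TMM scale described below, Foxp3 was higher and Zbtb7b and Il2ra were lower in the DB2313 group. A link between the letters and these directions was not tested. The 250 bases upstream of each start are printed 5′ to 3′ on the strand of the gene, and capitals mark matches on either strand to any of 6 short motifs, those of Runx, Tcf/Lef, STAT5, NFAT, Spi1 and Gata factors.
Il2ra, chr2:11642542-11642791, plus strand: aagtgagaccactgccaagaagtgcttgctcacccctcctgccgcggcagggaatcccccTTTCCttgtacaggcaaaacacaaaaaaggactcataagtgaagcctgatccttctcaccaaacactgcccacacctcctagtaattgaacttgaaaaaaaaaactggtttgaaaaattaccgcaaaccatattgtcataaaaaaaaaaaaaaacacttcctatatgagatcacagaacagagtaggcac
Zbtb7b upstream start, chr3:89393379-89393628, minus strand: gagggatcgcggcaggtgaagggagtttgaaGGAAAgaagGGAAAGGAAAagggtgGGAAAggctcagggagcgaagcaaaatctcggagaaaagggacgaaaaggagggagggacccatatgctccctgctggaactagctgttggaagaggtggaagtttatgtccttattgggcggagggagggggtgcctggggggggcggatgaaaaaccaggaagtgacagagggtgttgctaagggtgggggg
Zbtb7b downstream start, chr3:89387672-89387921, minus strand: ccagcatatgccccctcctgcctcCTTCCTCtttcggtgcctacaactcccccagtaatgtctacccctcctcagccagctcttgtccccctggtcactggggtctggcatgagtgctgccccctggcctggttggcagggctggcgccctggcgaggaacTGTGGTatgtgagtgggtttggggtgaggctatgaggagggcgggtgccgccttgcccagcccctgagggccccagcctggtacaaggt
Foxp3 upstream start, chrX:7579426-7579675, plus strand: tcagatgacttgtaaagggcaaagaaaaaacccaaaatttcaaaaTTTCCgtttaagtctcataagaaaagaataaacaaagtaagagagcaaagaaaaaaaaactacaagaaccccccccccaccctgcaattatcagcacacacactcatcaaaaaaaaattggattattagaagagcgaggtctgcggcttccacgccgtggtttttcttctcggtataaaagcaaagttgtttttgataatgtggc
Foxp3 downstream start, chrX:7580233-7580482, plus strand: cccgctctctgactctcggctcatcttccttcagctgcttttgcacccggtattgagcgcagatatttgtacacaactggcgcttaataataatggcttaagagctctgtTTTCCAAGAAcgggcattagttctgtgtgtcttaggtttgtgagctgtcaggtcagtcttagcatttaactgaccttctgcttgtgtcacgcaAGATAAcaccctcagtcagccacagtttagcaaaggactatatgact
In these letters, the downstream Zbtb7b start held a match to the Runx motif, TGTGGT, from -89 to -84 relative to the start, and on the opposite strand a match to the Spi1 motif, GAGGAAG, from -226 to -220. Among the 32851 promoters of the table, 14% held a match to Runx and 10.6% to Spi1 in the same window. The downstream Foxp3 start held a match to the STAT5 motif, TTCNNNGAA, from -139 to -131, which an NFAT match overlaps. It also held a match to the Gata motif, AGATAA, from -47 to -42. The same motifs were held by 7.02% (STAT5) and 9.99% (Gata) of all promoters. A match to the NFAT motif, GGAAA, present in 55.6% of all promoters, was held by each start except the downstream one of Zbtb7b, and the upstream Zbtb7b start held 4. No match to the Tcf/Lef motif, CTTTGA, was found in the 5 windows, and 13.8% of all promoters held one. A match describes letters only.

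Between 16611975 and 18596217 reads were counted on genes in each library. The same-group libraries differed by more than sampling noise (chi-square per gene of 2.54 to 4, against 51.8 to 56 between the groups), so none was taken as a copy. The CD8 coreceptor genes Cd8a and Cd8b1 were counted at least 1656 times in each library. Cd4, the coreceptor gene of the other lineage, had 1.64 to 1.85 times the counts of Cd8a in every library. Cd8b1 stood above Cd4 per kilobase of gene model, at 72.3 against 52.7 CPM in the control group and 112 against 72.8 CPM in the DB2313 group. Cd4 at such levels is at odds with a pure CD8T cell sample, and the source of the Cd4 and Foxp3 counts was not tested. A list of 20 pan T cell genes took 0.314% ± 0.00227 of control counts and 0.503% ± 0.00731 of DB2313 counts (SD, n = 3 each). Markers of other cells were counted too, and lists of them moved between the groups. The summed share of 14 macrophage markers ranged from 1.04% to 1.06% in control libraries and from 0.360% to 0.369% in DB2313 libraries, and that of 12 dendritic cell markers from 0.430% to 0.437% and from 0.309% to 0.314%, with Siglech at 0 in every library. The 6 myeloid progenitor markers took 0.0546% ± 0.00108 and 0.101% ± 0.000713 of the counts (SD, n = 3 each), of which 5 passed upward and Cd34 downward (59.3 ± 3.07 and 7.29 ± 0.381 CPM). The 6 platelet markers, with Gp1bb at 0 throughout, took 0.0246% ± 0.000293 and 0.0432% ± 0.00147 (SD, n = 3 each). The 7 mast cell and basophil markers took 0.0878% ± 0.000674 and 0.0759% ± 0.00126, of which Mcpt8, Fcer1a and Kit passed upward and Cpa3 (459 ± 6.20 and 186 ± 3.0 CPM) and Hdc downward. Over all 14883 genes tested, 20.8% passed upward and 24.6% downward (edgeR adjusted p below 0.05, TMM scaling). B cell markers took 0.00566% ± 0.000205 and 0.00818% ± 8.63e-05. Markers of NK cells took 0.00209% ± 7.58e-05 and 0.00367% ± 0.000220, and those of gamma delta T cells (3 of 5 in the table) 0.00177% ± 0.000189 and 0.00308% ± 0.000222 (SD, n = 3 each). The part of these shares in the results that follow was not tested. In such mixed RNA, fewer cells of a type and less RNA per cell cannot be told apart.

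In the DB2313 group, Cd4, Cd40lg and Foxp3 were higher and Zbtb7b, Il2ra and Ikzf4 were lower than in the control group with TMM scaling. TMM takes most genes to be unchanged. Scaled to the pan T cell genes, Cd4 and Foxp3 were instead lower, at -0.12 and -0.28 on the log2 scale. The 20 pan T cell genes themselves ran from -0.27 to 0.37 on that scaling. All changes with TMM were small, between 0.839-fold in Ikzf4 and 1.49-fold in Cd40lg. Thus 3 of the 7 genes passed an adjusted p of 0.05 upward and 3 downward, and Ikzf2 did not pass. Among all 14883 genes tested, 20.8% passed upward, 24.6% downward and 45.4% in either direction. These are 3096 genes upward and 3666 downward, a split that moved to 4932 and 2852 with library size scaling and to 4319 and 3102 with upper quartile scaling. With an absolute log2 fold change above 1 required as well, none of the 7 genes was called (with the adjusted p alone, edgeR called 6 and DESeq2 also called 6), against 1.38% of all genes upward and 5.30% downward. The median log2 fold change of the 7 genes was 0.11, beside 0.020 over all genes tested. The groups did not overlap in any of the 7 genes, with 3 lower and 4 higher in every DB2313 library. Over all genes, 27.5% were lower and 25.6% higher without overlap, or 53.1% in all.

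**Figure D1:**
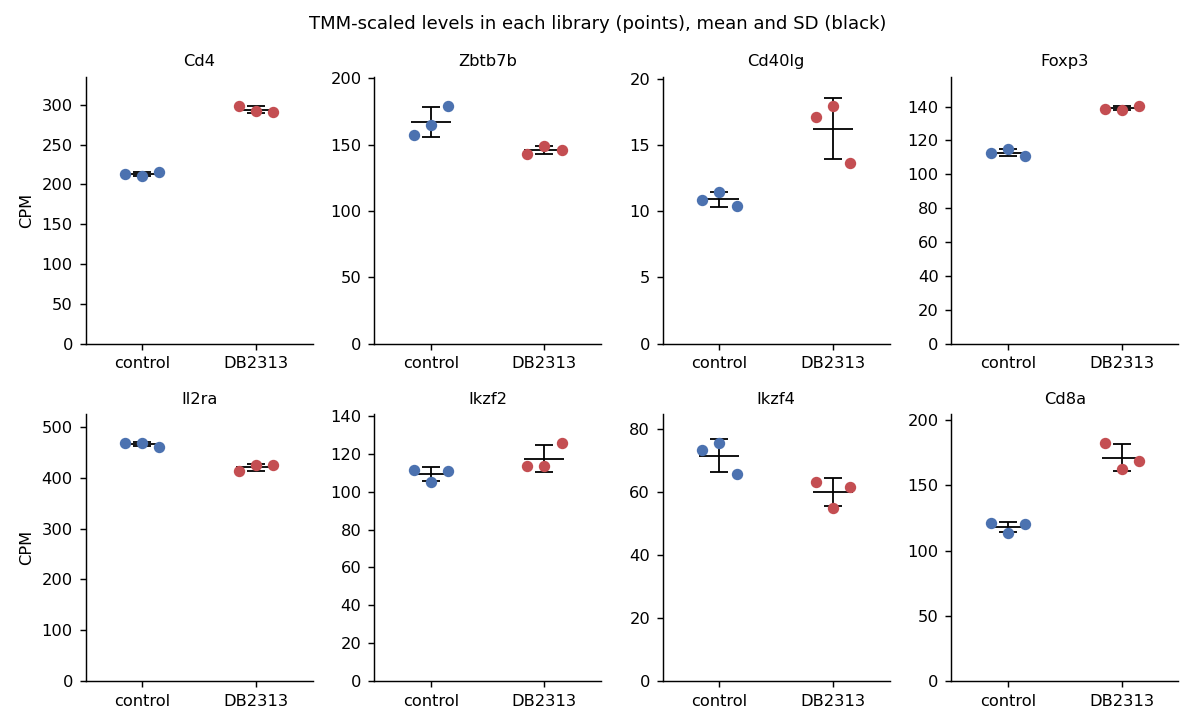
Levels of the 7 genes and of Cd8a in TMM-scaled CPM (y axes from 0) in the 3 control (blue) and 3 DB2313 (red) libraries, with the mean and SD in black. Cd4, Cd40lg, Foxp3 and Cd8a sat higher in every DB2313 library (on this scaling, not per pan T cell gene), Zbtb7b, Il2ra and Ikzf4 sat lower, and the Ikzf2 groups were separated by a narrow gap.

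The coreceptor gene Cd4 had 3839, 3619 and 3529 counts in control libraries, against 5528, 4984 and 5350 in DB2313 libraries. These are 213, 210.2 and 215 CPM (counts relative to the TMM-scaled library total) against 299, 292 and 290.4 CPM. Every DB2313 library lay far above the control libraries, and libraries of the same group lay close together. The log2 fold change was 0.47 (standard error 0.03, edgeR adjusted p = 4.51e-11). Cd8a, the partner chain gene of the CD8 lineage, rose alongside, from 118 ± 3.92 to 171 ± 10.2 CPM (SD, n = 3 each, log2 fold change 0.53, standard error 0.04, edgeR adjusted p = 4.09e-10), and Cd8b1 rose by 0.63 on the log2 scale (standard error 0.04, edgeR adjusted p = 8.89e-12).

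Zbtb7b, the CD4 lineage factor, moved the other way from Cd4. Its levels were 157, 165 and 179 CPM in the control libraries and 143, 149 and 146 CPM in the DB2313 libraries. The lowest control library stood above the highest DB2313 library, but the control libraries were spread more widely than the gap between the groups. The log2 fold change was -0.20 (standard error 0.04, edgeR adjusted p = 5.88e-04). With library size scaling it was -0.10 (edgeR adjusted p = 0.0464). Runx3, the opposing CD8 lineage factor, was at 102 ± 1.81 and 95.2 ± 4.60 CPM (SD, n = 3 each) with overlapping groups, and its log2 fold change of -0.093 (standard error 0.044, edgeR adjusted p = 0.0918) did not pass.

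Cd40lg was the least counted of the 7 genes. It was counted 196, 197 and 170 times in control libraries and 317, 307 and 251 times in DB2313 libraries, or 10.9, 11.4 and 10.4 CPM against 17.1, 18.0 and 13.6 CPM. DB2313 replicate 3 lay well below the other two of its group and still above every control library. The log2 fold change was 0.57 (standard error 0.11, edgeR adjusted p = 2.33e-04), with a 95% confidence interval of 0.34 to 0.81, the widest of the 7 genes.

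Foxp3, the regulatory T cell factor, was at 113, 115 and 111 CPM in control libraries and at 139, 138 and 140.5 CPM in DB2313 libraries. The libraries of each group were tightly grouped, with no overlap. The log2 fold change was 0.30 (standard error 0.04, edgeR adjusted p = 4.44e-07), smaller than that of Cd4. Of the genes that share exon bases with Foxp3, Ppp1r3f had 42 to 98 counts in a library, Flicr at most 61 and Ccdc22 0, against at least 1820 for Foxp3. These counts do not show how reads in the shared bases were assigned, so they do not measure the effect of the overlaps on Foxp3.

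Il2ra, the alpha chain of the IL-2 receptor, was the most abundant of the 7 genes, and 98.1% of all tested genes had a lower mean CPM. It was at 468, 469 and 462 CPM in the control libraries and at 413, 425 and 425 CPM in the DB2313 libraries. All DB2313 libraries were lower, although the decrease was slight, with a log2 fold change of -0.15 (standard error 0.03, edgeR adjusted p = 5.37e-04). With library size scaling the log2 fold change was -0.053 and no longer passed (edgeR adjusted p = 0.168). Il2rb, the beta chain shared with the IL-15 receptor, rose from 394 ± 4.40 to 555 ± 19.2 CPM (SD, n = 3 each, log2 fold change 0.50, standard error 0.03, edgeR adjusted p = 1.43e-11).

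The Ikaros family members differed from each other. Ikzf2 (Helios) was at 112, 105 and 111 CPM in control libraries and at 113, 113 and 126 CPM in DB2313 libraries. Only DB2313 replicate 3 stood clearly apart, and the log2 fold change of 0.11 (standard error 0.05, 95% confidence interval 0.012 to 0.20) did not pass (edgeR adjusted p = 0.0612). Without DB2313 replicate 3 it was 0.055, and without control replicate 2 it was 0.079. It passed with library size scaling (0.20), with upper quartile scaling (0.17), and without DB2313 replicate 1 or 2 (0.13 each). Ikzf4 (Eos) was at 73.3, 75.5 and 65.7 CPM in control libraries and at 63.3, 55.0 and 61.7 CPM in DB2313 libraries. Its groups were separated by a small gap, with a log2 fold change of -0.25 (standard error 0.06, edgeR adjusted p = 0.00160). With library size scaling it was -0.16 (edgeR adjusted p = 0.0372).

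Levels of different genes were compared per kilobase of gene model. In the control group, Il2ra was highest at 81.7 ± 0.677 CPM per kilobase, followed by Cd4 at 52.7 ± 0.634, Zbtb7b at 29.9 ± 2.0, Foxp3 at 28.3 ± 0.464, Ikzf4 at 11.9 ± 0.860, Ikzf2 at 9.40 ± 0.316 and Cd40lg at 8.71 ± 0.429 (SD, n = 3 each). Zbtb7b and Foxp3 overlapped between libraries, as did Ikzf2 and Cd40lg, and the other neighbours in this order did not. In the DB2313 group, Il2ra (73.8 ± 1.22) and Cd4 (72.8 ± 1.14) overlapped, Foxp3 (34.9 ± 0.313) stood above Zbtb7b (26.1 ± 0.493), and Cd40lg (13.0 ± 1.85) above Ikzf2 (10.1 ± 0.617) and Ikzf4 (10.0 ± 0.736), of which the last pair overlapped (CPM per kilobase, SD, n = 3 each). On the same scale, Cd8a was at 32.5 and 47.1 and Cd8b1 at 72.3 and 112 in the control and DB2313 groups. Cd4 RNA thus lay between the levels of both CD8 chain genes in both groups.

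Since the pan T cell genes were higher in the DB2313 group, each gene was also measured per unit of T cell RNA. With TMM, all 20 pan T cell genes passed upward, with a median of 0.59 on the log2 scale, where 20.8% of all genes passed upward. The scaling to these genes was chosen with that rise known. When libraries were scaled to the summed counts of these genes, 6 of the 7 genes were lower in the DB2313 group, none was higher (edgeR, adjusted p), and Cd40lg did not pass. This scaling moved the median of all genes by -0.58 on the log2 scale to -0.56, and 77.1% of all genes were then called lower and 1.16% higher, or 78.3% in either direction, so the count of 6 lies near the share of all genes. The same 6 genes did not overlap between the groups, where 78.1% of all genes were lower and 79.7% separated in either direction. The median of the 7 genes was -0.48. All 7 fitted values were below 0, and none was called higher when the counts of Cd3d, Cd3e, Cd3g and Cd247 alone set the scale. Scaled to all 20, the pan T cell genes themselves ran from -0.27 (Cd3e) to 0.37 (Sh2d1a), with 5 called higher and 5 lower. Cd4 at -0.12 lay within that range and Foxp3 at -0.28 just below it.

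**Figure D2:**
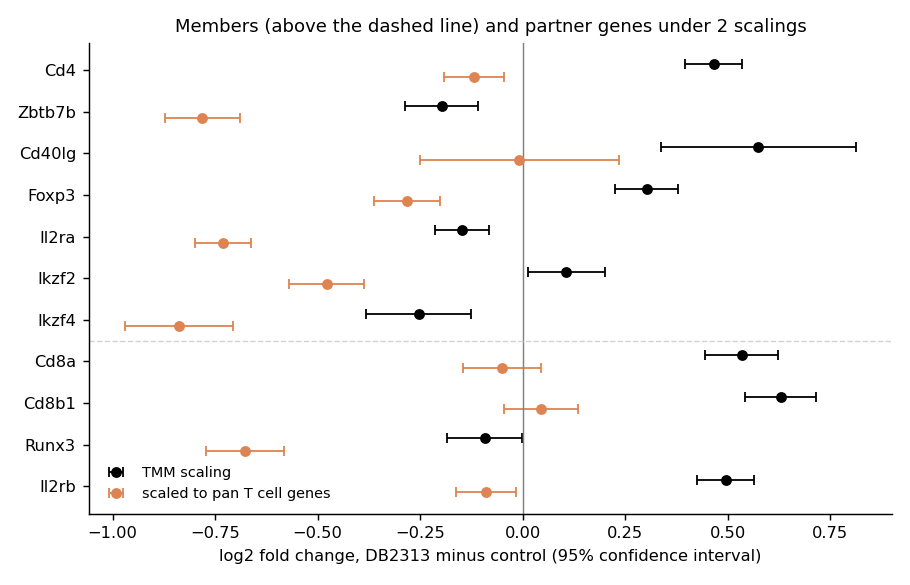
Log2 fold changes (DB2313 minus control, x axis) with 95% confidence intervals for the 7 genes, above the dashed line, and 4 partner genes, with TMM scaling (black) and with scaling to 20 pan T cell genes (orange). Cd4 went from 0.47 to -0.12 and Foxp3 from 0.30 to -0.28, while Zbtb7b, Il2ra and Ikzf4 lay below 0 with both.

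Relative to T cell genes, the 7 genes fell into different sizes of change. Cd4 had 65.3, 65.2 and 66.2 counts per 1000 pan T cell counts in the control libraries and 62.2, 59.9 and 59.1 in the DB2313 libraries. The decrease was small and the groups did not overlap (log2 fold change -0.12, standard error 0.04, edgeR adjusted p = 0.00411), beside Cd8a at -0.050 (standard error 0.046) and Cd8b1 at 0.044 (standard error 0.044), which did not pass. Foxp3 went from 34.6, 35.6 and 34.1 to 28.9, 28.4 and 28.6 counts per 1000 (log2 fold change -0.28, standard error 0.04, edgeR adjusted p = 7.02e-07). Cd40lg had 3.36 ± 0.183 and 3.34 ± 0.497 counts per 1000 (SD, n = 3 each) with overlapping groups, and its log2 fold change of -0.0086 had a 95% confidence interval of -0.25 to 0.23.

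The larger decreases per T cell RNA were in Il2ra, Zbtb7b and Ikzf4, with Ikzf2 between. Il2ra had 144, 145 and 142 counts per 1000 in control libraries and 85.9, 87.3 and 86.5 in DB2313 libraries, or 0.602 of the control level (log2 fold change -0.73, standard error 0.03, edgeR adjusted p = 4.13e-15). Zbtb7b went from 48.3, 51.3 and 55.1 to 29.8, 30.5 and 29.7 (log2 fold change -0.78, standard error 0.04, edgeR adjusted p = 2.07e-13). These groups were widely separated, and the DB2313 libraries differed by less than the control libraries. Ikzf4 went from 22.5, 23.4 and 20.2 to 13.2, 11.3 and 12.6 (log2 fold change -0.84, standard error 0.06, edgeR adjusted p = 4.01e-11). Ikzf2 went from 34.2, 32.6 and 34.1 to 23.6, 23.3 and 25.6 (log2 fold change -0.48, standard error 0.04, edgeR adjusted p = 1.40e-09). Runx3, which did not pass on the TMM scale, was also lower here, with a log2 fold change of -0.68 (standard error 0.05, edgeR adjusted p = 5.87e-12). These values are read beside the median of all genes on this scaling, -0.56, with 77.1% of all genes called lower. The decrease of Ikzf2 was smaller than that median.

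**Figure D3:**
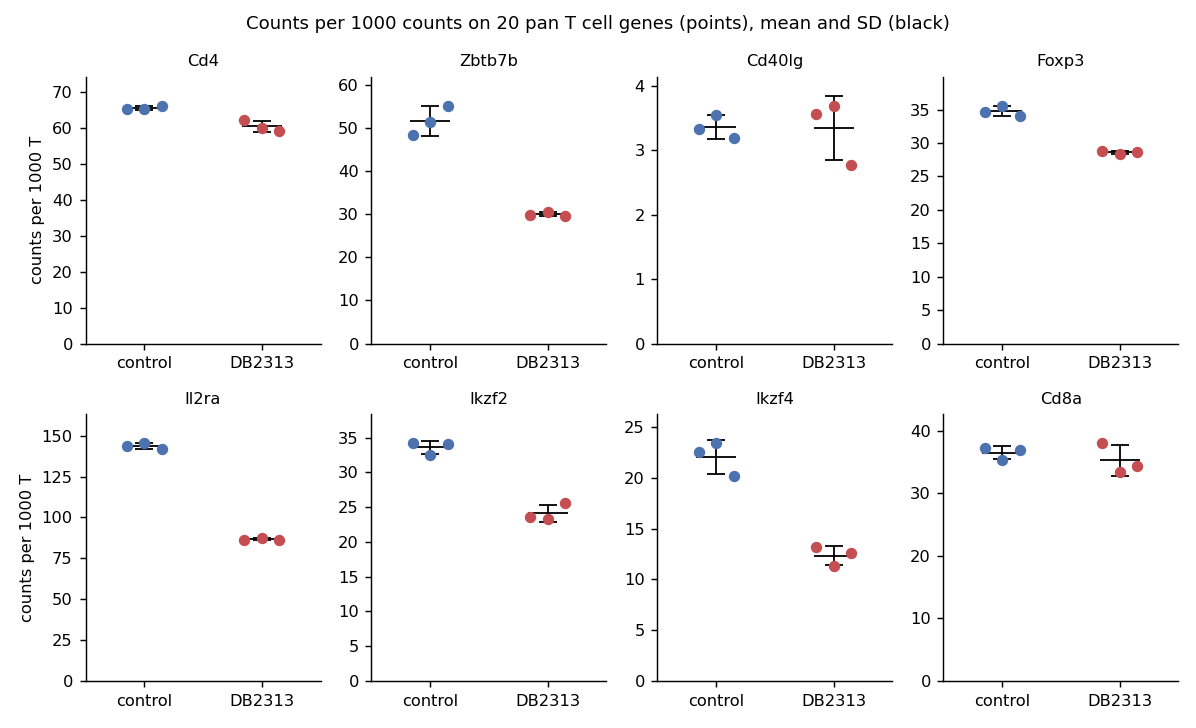
Counts of the 7 genes and of Cd8a per 1000 counts on 20 pan T cell genes (y axes from 0) in the 3 control (blue) and 3 DB2313 (red) libraries, with the mean and SD in black. Cd4 and Foxp3, higher in CPM, were lower here, Il2ra, Zbtb7b and Ikzf4 were at 0.602, 0.582 and 0.559 of the control level, and Cd40lg and Cd8a overlapped.

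Ratios within a library do not depend on the scaling between libraries. Of 5 ratios, 3 did not overlap between the groups. For single genes on the TMM scale, 53.1% of all tested did not overlap, and no share over all possible ratios was computed. The ratio of Il2ra to Il2rb counts changed most. It was 1.18, 1.21 and 1.17 in the control libraries and 0.754, 0.738 and 0.787 in the DB2313 libraries, a difference of -0.64 on the log2 scale (p = 0.1 by a two-sided exact permutation test, which cannot go lower with 3 samples a group). The ratio of Foxp3 to Cd4 was 0.531 ± 0.0149 and 0.474 ± 0.00978 (SD, n = 3 each), with a log2 difference of -0.16 and the same exact p of 0.1. The ratio of Ikzf2 to Ikzf4 was 1.53 ± 0.150 and 1.96 ± 0.150 (SD, n = 3 each), with a log2 difference of 0.36 and the same exact p of 0.1. After Benjamini-Hochberg adjustment over the 5 ratios these exact p-values were 0.167. The ratio of Cd4 to Cd8a, at 1.76, 1.85 and 1.79 in control libraries and 1.64, 1.79 and 1.72 in DB2313 libraries, overlapped between the groups (exact permutation p = 0.3, adjusted 0.3), as did that of Zbtb7b to Runx3, at 1.65 ± 0.0964 and 1.53 ± 0.0651 (exact permutation p = 0.2, adjusted 0.25). With 3 samples a group, none of these tests could reach 0.05.

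**Figure D4:**
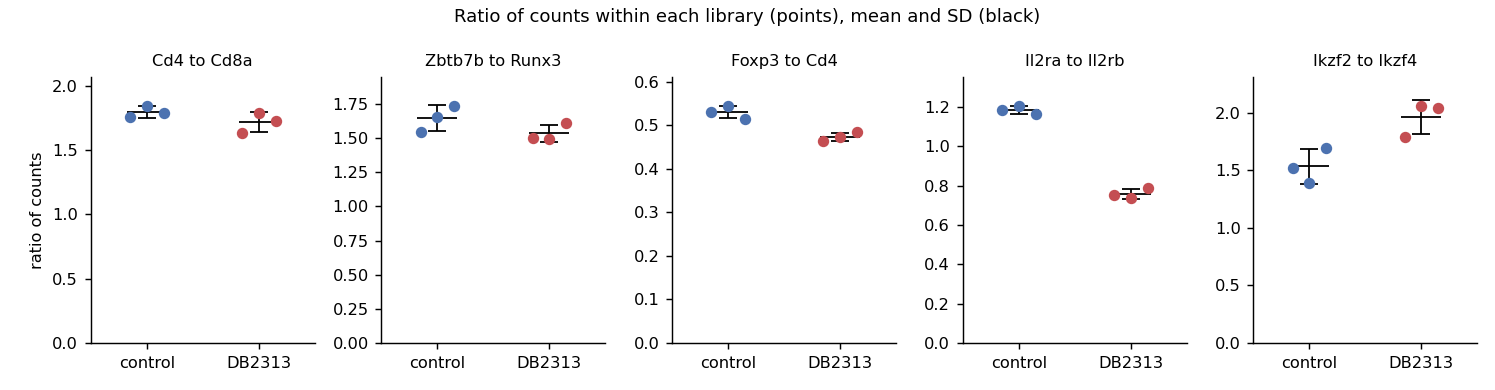
Ratio of the counts of 2 genes within each library (y axes from 0) in the control (blue) and DB2313 (red) groups, with the mean and SD in black. The ratio of Il2ra to Il2rb went from 1.19 to 0.760, whereas the ratios of Cd4 to Cd8a and of Zbtb7b to Runx3 overlapped between the groups.

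Other genes of the same pathways were taken from lists. The counts for each list are read beside all genes tested, of which 20.8% passed upward and 24.6% downward on the TMM scale. Among 20 transcription factors of helper lineages, 7 rose, 8 fell and 5 did not pass, with a median log2 fold change of -0.019. Irf4, a factor needed by several helper subsets and also active in dendritic cells and macrophages, fell from 117 ± 1.73 to 52.0 ± 2.49 CPM (SD, n = 3 each, log2 fold change -1.17). Tox, which acts in CD4 lineage development, had a log2 fold change of 0.58, and Hic1 of -0.51. The most abundant were Stat3, at -0.092, and Satb1, a chromatin organizer of T cells, at 0.50 (log2 fold changes, all passing). The direction of Tox and Satb1 did not hold per pan T cell gene, where they were at 0.00059 and -0.080.

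Of 17 genes that carry out helper functions, 11 passed the filter on low counts, of which 3 rose, 4 fell and 4 did not pass, with a median log2 fold change of -0.23. Over all genes, 20.8% rose and 24.6% fell. Il2 fell from 5.79 ± 0.597 to 3.32 ± 0.777 CPM (SD, n = 3 each, log2 fold change -0.80, edgeR adjusted p = 0.00140), and Csf2 had a log2 fold change of -0.80. Tnfsf8 (CD30 ligand), the most abundant, was at 86.0 ± 2.74 and 94.1 ± 1.46 CPM (SD, n = 3 each, log2 fold change 0.13, and -0.45 per pan T cell gene). Icos, a costimulatory receptor, and Cxcr5, the homing receptor of follicular helper cells, rose by 0.45 and 0.58 on the log2 scale, but were at -0.14 and -0.0070 per pan T cell gene. The helper cytokine genes Il4, Il13 and Il17a lay at or below 1.96 CPM in each group mean and did not pass, and Il5, Il9 and Il21 had at most 5 counts in a library.

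Among 22 tested genes of the regulatory T cell program, 10 rose, 8 fell and 4 did not pass, with a median log2 fold change of 0.090. The shares over all genes were 20.8% and 24.6%. Entpd1 (CD39), an ectonucleotidase of regulatory T cells that macrophages also carry, fell from 147 ± 3.74 to 64.3 ± 2.98 CPM (SD, n = 3 each, log2 fold change -1.19). Il1rl1, the IL-33 receptor, fell by 0.76 on the log2 scale, and the actin-capping gene Capg and the costimulatory receptor gene Tnfrsf9, the most abundant of the list, fell by 0.49 and 0.46. Which cells of the mixed RNA carried these transcripts was not tested. In the same libraries the macrophage markers fell in 14 of 14 cases. Tigit rose by 0.83, Ctla4 by 0.69 and Tnfrsf18 (GITR) by 0.61 on the log2 scale, and the latter pair were chosen after their values were seen. Per pan T cell gene, none of the 22 rose (edgeR, also none at an unadjusted p under 0.05) and 17 fell, near the 77.1% of all genes called lower on that scaling. Tigit, Ctla4 and Tnfrsf18 were at 0.25, 0.11 and 0.026 without passing. Il10 was not tested, with 2 to 9 counts in a library.

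Around the IL-2 receptor, 7 of 14 genes rose, 4 fell and 3 did not pass, with a median log2 fold change of 0.067. Of all genes tested, 20.8% rose and 24.6% fell. Il7r rose from 210.3 ± 6.45 to 309 ± 1.54 CPM (SD, n = 3 each, log2 fold change 0.55) and the kinase gene Jak1 from 496 ± 11.4 to 598 ± 16.7 CPM, while Socs2, a feedback inhibitor of cytokine signalling, fell from 215 ± 6.11 to 154 ± 5.08 CPM (log2 fold change -0.48). Il2ra thus stood apart from Il2rb and Il7r in direction on the TMM scale. Per pan T cell gene, 13 of the 14 fell and Il7r did not pass, where 77.1% of all genes were called lower.

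Most genes of the CD40 axis were lower on the TMM scale, and mixed RNA does not show which cells carried them. Of 13 genes, 8 fell, none rose (edgeR, adjusted p, with all 13 fitted values below 0) and 5 did not pass, with a median log2 fold change of -0.18. Over all genes, 24.6% fell and 20.8% rose. Cd40, the receptor of CD40 ligand, fell from 41.9 ± 1.33 to 25.6 ± 1.09 CPM (SD, n = 3 each, log2 fold change -0.71), whereas its ligand gene Cd40lg was higher in CPM and did not differ detectably per pan T cell gene. Il12b fell by 0.82, Cd86 by 0.64 and Nfkb2 by 0.38 on the log2 scale, and Traf1, the most abundant, was at -0.023 without passing. The genes of a list around MHC class II were lower in 7 of 7 cases, with a median log2 fold change of -1.74. Of these, H2-Aa, H2-Ab1 and H2-Eb1 encode chains of the molecules that CD4 binds, and Ciita, Cd74, H2-DMa and H2-DMb1 do not. The largest fall was in the transactivator gene Ciita, at 189.5 ± 2.87 and 34.7 ± 0.469 CPM in the control and DB2313 groups (SD, n = 3 each, log2 fold change -2.45). H2-Eb1 and H2-Ab1, which encode MHC class II beta chains, and H2-Aa, which encodes an alpha chain, fell by 2.19, 1.97 and 1.66 on the log2 scale. Cd74, the most abundant of this list, fell from 5084 ± 47.9 to 1520 ± 15.6 CPM (SD, n = 3 each, log2 fold change -1.74). In the same libraries the macrophage markers fell in 14 of 14 cases, the median change being -1.22 on the log2 scale, and the dendritic cell markers in 9 of 11 tested.

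Of the other Ikaros family genes on the list, Ikzf1 and Ikzf3 were higher in CPM, and Ikzf5, with 34 to 59 counts in a library, did not pass (log2 fold change 0.39, standard error 0.24, edgeR adjusted p = 0.193). Ikzf1 rose from 349 ± 2.43 to 421 ± 3.87 CPM (SD, n = 3 each, log2 fold change 0.27) and Ikzf3 (Aiolos) from 74.2 ± 1.84 to 97.1 ± 3.37 CPM (log2 fold change 0.39). Per pan T cell gene both were lower, at -0.31 and -0.20, which is less than the all-gene median of -0.56 on that scaling, where 77.1% of all genes were called lower. Of the 9 genes of this family and its partners, 4 rose, none fell (edgeR, also none at an unadjusted p under 0.05) and 5 did not pass. Across all genes, 20.8% rose and 24.6% fell. The partner deacetylase gene Hdac2 rose by 0.30 on the log2 scale, and the remodeller gene Chd4 was at -0.062 without passing.

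**Figure D5:**
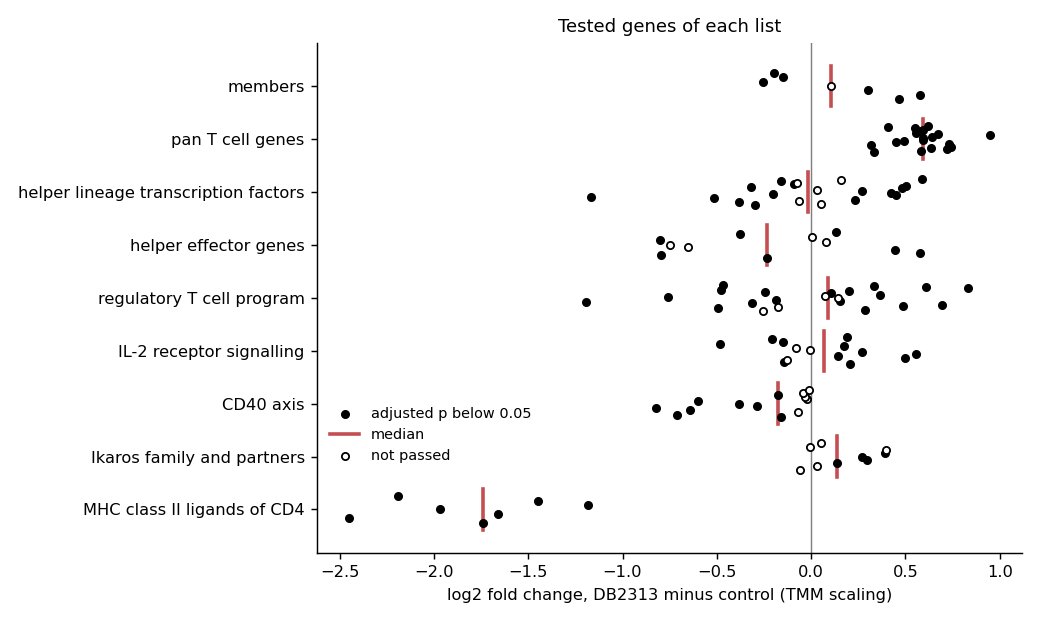
Log2 fold changes (DB2313 minus control, TMM scaling, x axis) of the tested genes of each list, with filled points for an adjusted p below 0.05, open points for the rest and a red line at the median. The 7 genes (top) lay on both sides of 0, the 20 pan T cell genes all lay above 0 on this scaling, and the MHC class II genes all lay below -1.

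The genes with the most similar profiles were found by the root mean square distance between mean-centred log2(CPM + 0.5) values over the 6 libraries, in a pool of 9331 protein-coding genes (10 CPM or more on average). Since the libraries form 2 groups, this mostly reflects a like difference between the groups. Nearest to Cd4 were Ifngr1, Il16 and Shisa5, at 0.017, 0.020 and 0.022 log2 units, to Foxp3 were Fyn, Irgm1 and Exosc3, at 0.012 to 0.015, and to Il2ra were Kpna3, Eif4a1 and Zc3h4, at 0.0100 to 0.014. Zbtb7b was nearest to Got2, Sdhd and Calm3 (0.018 to 0.019), Ikzf2 to Ankrd12, Akr1c13 and Cul3 (0.017 to 0.021) and Ikzf4 to Braf, Ttl and Bcl2l2 (0.026 to 0.033). Cd40lg, with the fewest counts, had no neighbour as close, the nearest being 5830411N06Rik, Oas1c and Cd99l2 at 0.050 to 0.073.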

How the data were processed

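RNA-seq libraries of 3 control and 3 DB2313 samples were analysed. The authors deposited raw counts per gene. The paper's methods name LifeScope for alignment and counting, whereas the submitters' processing notes list CASAVA 1.8, HISAT2 2.0.5 and featureCounts 1.5.0-p3; the build, annotation and strand setting are not given in the sources used here. Columns were matched to samples by their labels.

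From the counts, 14883 genes passing filterByExpr were tested with edgeR 4.0.16 (TMM, glmQLFit, glmQLFTest; R 4.3.3), with Benjamini-Hochberg adjustment over all genes; the call was an adjusted p below 0.05. Standard errors come from the fitted change and its F statistic. A second fit set library sizes in proportion to the summed counts of 20 pan T cell genes. The 5 ratios of counts (0.5 added) were compared with exact permutation tests. CPM is TMM-scaled. Floors and counts cover counting error only. Scripts were tested on simulated counts.

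The genes, lists and motifs were chosen with earlier results of these data known. Named are the 7 genes, their partners Cd8a, Cd8b1, Runx3 and Il2rb, per list up to 3 called genes with the largest change and the 2 most abundant, and the 3 nearest profiles. Ctla4, Tnfrsf18, Flicr, Ccdc22, Gm36995, Ppp1r3f, Ikzf5, the marker genes and the low cytokine genes were added after their values were seen. Alternatives were DESeq2 1.42.0, other scalings and filters, a replicate block, a fold threshold and leaving out each sample. The RNA-seq of macrophages was not analysed here.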

Additional observations from a re-analysis of the deposited data

How the results depend on the processing

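Of 268 comparisons of 25 results with an alternative, 256 stayed within these bounds: a tested value kept its sign and call, a ratio moved by less than the spread between replicates, and a count stayed within 1.5 times the main one. Counts within that bound still moved, as genes called higher were 3096 with TMM, 2368 with DESeq2 and 4319 with upper quartile scaling, and library size scaling called 4 of the 7 genes higher and 2 lower. An added threshold on the fold change left 205 higher and 789 lower genes and called 0 of the 7 genes higher and 0 lower, since it tightens the call itself. Library size scaling called 4932 genes higher, put Il2ra at -0.053 without passing and Ikzf2 at 0.20 past the threshold. With upper quartile scaling Ikzf2 passed at 0.17. The cause was not tested. With each sample left out, the log2 fold change of Ikzf2 ranged from 0.055 to 0.13, the highest without DB2313 replicate 1 or 2, and the number of the 7 genes called higher from 3 to 4. Per pan T cell gene, Cd40lg, which did not pass, ranged from -0.084 to 0.11 over these fits and was above 0 without control replicate 2 (0.034) and without DB2313 replicate 3 (0.11). DESeq2 called the same numbers, 3 higher and 3 lower.

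The replicate numbers were not taken as pairs, since deviations from the group means of same-numbered samples correlated at -0.0049, -0.019 and -0.11. With the replicate block, 3 of the 7 genes were again higher and 3 lower, the Cd4 log2 fold change was 0.47 and that of Ikzf2 0.10, and 2917 genes were higher and 3525 lower in all. The block changed no call of the 7 genes.

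With 3 samples a group, ratios could not reach 0.05, and the 170 to 317 counts of Cd40lg gave it the widest interval of the 7 genes. For a gene at 0 the limit is 3 counts, which in the smallest library is 1.81e-05%.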
